A study of Rattus norvegicus with 8 samples.

Results

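The genes described here encode the machinery that loads, docks and fuses synaptic vesicles in neurons. They were taken by name from the gene symbols of the files: the synaptotagmins (Syt), syntaxins (Stx), syntaxin binding proteins (Stxbp), VAMP and SNAP proteins, SV2, synapsin (Syn), complexin (Cplx), RIM (Rims), Rab3, Unc13 and synaptogyrin (Syngr) families, with Syp, Bsn, Pclo and Nsf. The rule used names alone and no measured value, although earlier results of these data were known when it was written. The names matched 74 of 18003 gene symbols, and these carried 474 of the 98356 alternative polyadenylation (APA) sites in the files. By this pattern Snap91, a clathrin adaptor with no kinship to Snap25, and several SNARE proteins of endosomes and the Golgi were also included.

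Neurotransmitter leaves a nerve terminal when a vesicle fuses with the plasma membrane. The vesicle SNARE Vamp2 winds together with the plasma membrane SNAREs Stx1a and Snap25, and the Unc13 proteins guide this assembly. Synaptotagmins sense calcium, complexins clamp and release the assembled complex, Nsf takes spent complexes apart, and the active zone proteins Rims1, Bsn and Pclo hold vesicles close to calcium channels. Presynaptic CB1 receptors, on which the cannabis constituent THC acts, are known to reduce release from nerve terminals.

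The samples were 8 libraries of hypothalamic RNA of adult male Long-Evans rats with no genetic alteration. The cannabis group had 4 libraries (replicates 1, 2, 3 and 5). Its rats had breathed vapor of cannabis plant matter with 7.8% THC and 0.5% CBD for 10 min. The air-treated controls had 4 libraries (replicates 1 to 4), and their rats were handled likewise with air. Food was withheld from free-feeding rats after exposure, and tissue was collected 1 hr later. The dissected tissue holds neurons, glia and vessels together, so fewer cells of a type and less RNA per cell cannot be told apart. In WTTS-Seq (whole transcriptome termini site sequencing) a read starts at the poly(A) tail, so that it is taken to mark where a transcript ends. A normalized count is the reads at such a site, scaled by the size factor of its library. Taking each transcript to give 1 end, levels below are counts of ends, not of sequence per length. The level of a gene is the sum over its sites. Whether each site is the true end of a transcript was not tested, since the sequence at the sites was not read.

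To show the DNA from which the most and the least abundant of these transcripts start, promoter stretches of 5 genes are printed, each ending at the base before the annotated start. They are the 150 bases upstream of the 3 members with the highest and the 2 with the lowest 3′ end level among those with an entry in the RefSeq table of build GRCr8. Capitals mark GGGCGG, the core of the GC box, or its reverse complement. Coordinates are chr10:54292639-54292788 (+ strand) for Vamp2, chr2:176529776-176529925 (- strand) for Syt11, chr16:18722274-18722423 (- strand) for Rab3a, chr1:23056466-23056615 (- strand) for Stx7 and chr11:13619286-13619435 (+ strand) for Stx19.
Vamp2: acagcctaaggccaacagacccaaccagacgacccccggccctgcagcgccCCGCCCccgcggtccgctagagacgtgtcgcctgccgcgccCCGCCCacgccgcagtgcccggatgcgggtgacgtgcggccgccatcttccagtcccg
Syt11: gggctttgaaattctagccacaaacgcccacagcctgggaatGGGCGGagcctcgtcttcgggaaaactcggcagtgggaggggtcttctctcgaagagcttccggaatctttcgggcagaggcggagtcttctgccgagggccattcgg
Rab3a: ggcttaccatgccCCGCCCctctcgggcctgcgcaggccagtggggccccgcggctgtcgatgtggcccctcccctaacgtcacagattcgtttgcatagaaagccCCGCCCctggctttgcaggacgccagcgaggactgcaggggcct
Stx7: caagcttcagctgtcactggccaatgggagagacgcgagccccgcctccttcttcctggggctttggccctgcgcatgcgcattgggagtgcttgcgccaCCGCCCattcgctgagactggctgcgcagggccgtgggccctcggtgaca
Stx19: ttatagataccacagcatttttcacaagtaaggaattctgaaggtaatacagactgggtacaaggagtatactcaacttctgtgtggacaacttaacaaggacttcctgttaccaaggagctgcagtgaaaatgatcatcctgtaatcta

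The table held a window of 300 bases (250 before the start and 50 from it on) for 58 of the 74 members. GGGCGG was in the window of 41 of these 58 genes on either strand (70.7%) and in 34.9% of the 27457 windows of all genes. The median window of the members had 63.2% G and C and 21.5 CpG dinucleotides, against 52.3% and 7 over all genes. The 27457 windows outnumber the 18003 genes in the files, so they include genes without a site here. The promoters with most CpGs were those of Syt9 (45), Bsn (39) and Stx3 (38), and those of Vamp2 and Syn1 had 31 each. Syt9 and Stx3 had low 3′ end levels (means of 21.3 and 33.9), and the promoter of Syt1 (mean 460) had 8 CpGs. That of Stx19 had none, and was 41% G and C. Of the other motifs searched on both strands, CCAAT was in 37.9% of the members' windows and in 37.7% of all. The TATA motif TATAAA was in 3 members (Stxbp3, Stx19 and Syt14, 5.17%, against 14.3% of all), and the cAMP response element TGACGTCA in Vamp1 and Syn1 (3.45% against 1.91%). TTCAGCACC, part of the element bound by the neuronal repressor REST, was found in Unc13a alone of the 58 (1.72% against 0.379% of all). These are matches of letters and not measured sites of binding.

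The 8 libraries held from 1159811 reads on sites (control 4) to 3706778 (cannabis 2), and 1 read was worth from 0.664 to 1.99 normalized counts. Air control replicate 4 and cannabis replicate 1 stood apart from the rest: 26.1% and 17.0% of the sites had no read in them, against 3.32% to 10.3% in the others, and their deviations from their group means correlated across genes with r = 0.62. They belong to different groups, and the counts of members called are also given without both. Members took from 0.992% to 1.13% of the normalized counts of a library. The neuronal markers Rbfox3, Map2, Tubb3, Elavl3, Elavl4 and Uchl1 were all present, and their sum was from 8982 to 15189 in controls and from 11165 to 15334 in the cannabis group. Most of that sum was Uchl1 (means of 9948 and 10796), the one of the 6 with a positive log2 fold change (0.15). The other 5 were negative, from -0.06 for Map2 to -0.59 for Rbfox3, with a median of -0.21 over the 6 and none at P under 0.05. Transcripts of hypothalamic neurons (Avp, Oxt, Pomc, Agrp, Hcrt, Pmch, Sim1, Nkx2-1 and Trh) were present as well.

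Vamp2, the principal vesicle SNARE, was the most abundant of the 74. Its counts in controls 1 to 4 were 3221, 4305, 3855 and 3926, and those in cannabis replicates 1, 2, 3 and 5 were 4524, 3790, 4059 and 4908. Also abundant were Syt11, a synaptotagmin that does not bind calcium, at a mean of 2026, the vesicle GTPase Rab3a at 1932, Syt4 at 1701 and Syn2 at 1232. Ranked over all 74 members, also those not reported by name, the 5 highest held 46.1% of the summed level and the 10 highest 64.1%. Of the 74 members, 6 had a mean of at least 1000 normalized counts, 36 of at least 100 and 12 of fewer than 10. A read was present in every library for 71 members. The exceptions were Syt2, Stx7 and Stx19, each with 0 reads in 1 or 2 libraries. At this depth a count of 0 does not show that a transcript was absent.

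Within a family the levels were unequal. Vamp2 exceeded Vamp1 (mean 229) in every library, and Cplx1 (531) exceeded Cplx2 (98.98) and Cplx3 (8.45). Of the calcium sensors of fast release, Syt1 had a mean of 460 and Syt2 of 7.28. Among the synapsins the order was Syn2 (1232), Syn1 (953) and Syn3 (9.20). Of the Syn2 total, 53.7% was on a site classed as intronic, on the strand of the gene, and the distal Syn2 site had a mean of 432. The place of Syn2 above Syn1 rests on that intronic site. Among the Unc13 priming factors the order was Unc13c (104), Unc13b (50.9) and Unc13a (8.48). The low level of Unc13a rests on 73 reads in all. These levels count only sites with a gene symbol, 64313 of the 98356. Sites without a symbol were looked for only near the 24 member sites of known position. Only 1960 of the 98356 sites had a known position, so other sites nearby would not have been found. Ends of Unc13a and of other members may therefore be missing from their totals, which was not tested. Rims2 (732) exceeded Rims1 (292), but 74.1% of the Rims2 reads were on a site classed as intronic by Cuffcompare. Without that site Rims2 had a mean of 189. Likewise Syt10 fell from 355 to 23.9 without its intronic leading site. Of the intronic sites whose gene strand could be looked up, 29 of 73 (39.7%) lay on the strand of the gene, against 770 of 795 distal sites (96.9%). The strand of Rims2 and Syt10 was not in the table used here, so whether their leading sites are ends of these genes was not tested.

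**Figure D1:**
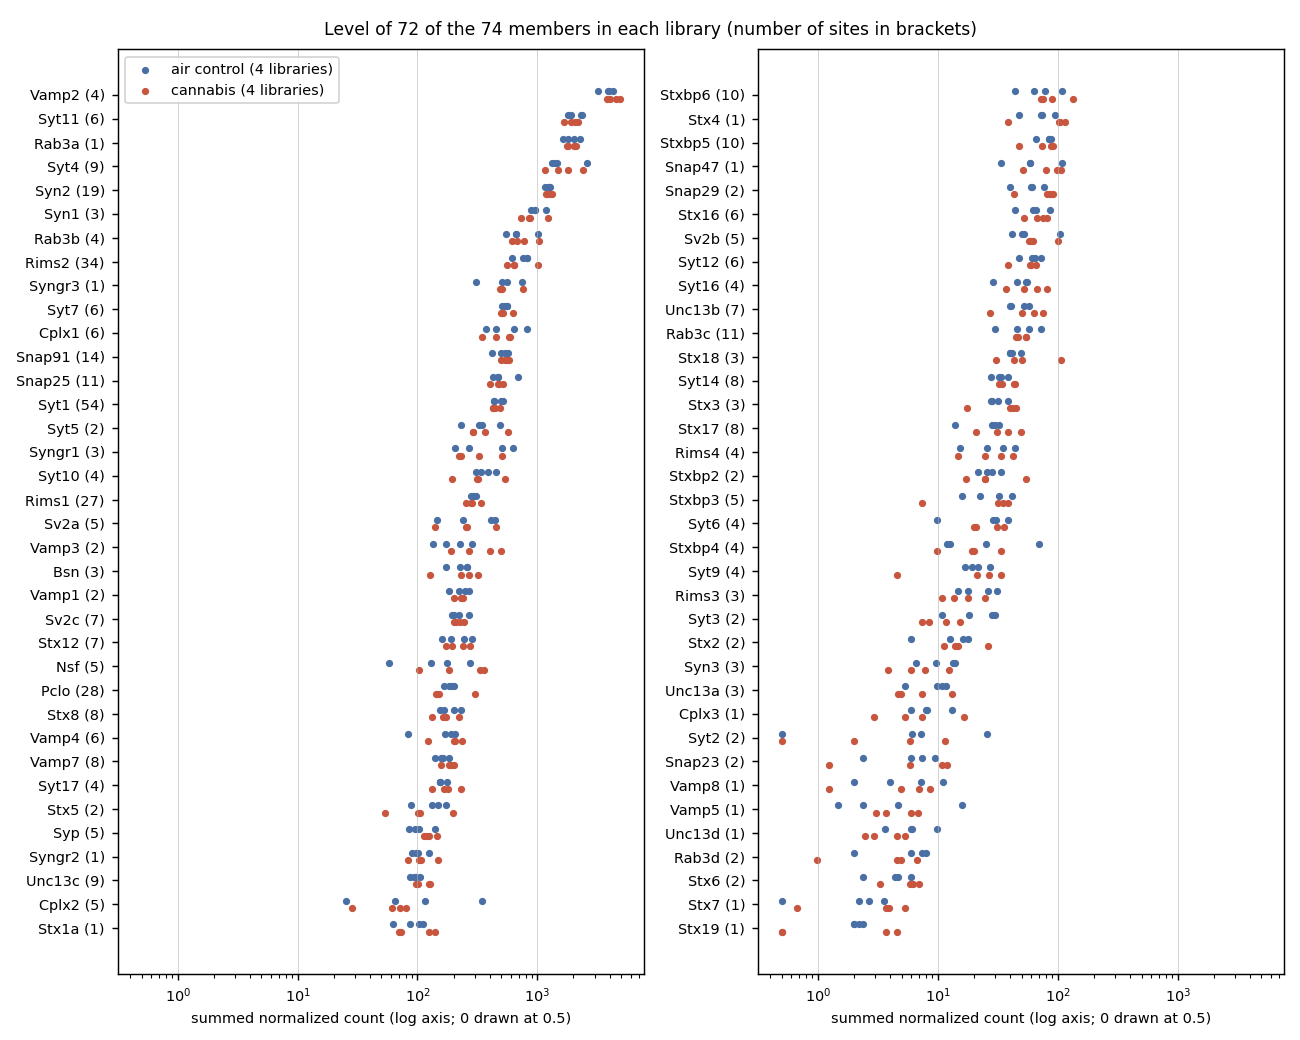
Summed normalized counts (x, log axis, 0 drawn at 0.5) of 72 of the 74 members, sorted by mean, with 1 point per library (blue, 4 air controls; red, 4 cannabis) and the number of APA sites in brackets. Levels run from about 4073 for Vamp2 to 2.12 for Stx19, and the points of the groups overlap in every row.

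The main question was whether cannabis exposure changed these transcripts. In gene totals no member passed P under 0.01, the threshold the study used for sites: 0 of 74, where the same limma fit called 0.278% of all 18003 genes. At an unadjusted P under 0.05 there were 2 of 74, Vamp3 and Syt3, against 2.41% of all genes. None had an adjusted P under 0.1 (0.00555% of all genes). On the recovered reads, edgeR and DESeq2 each gave 0 members at 0.01 (0.3% and 0.423% of all genes). Each gave 3 at an unadjusted P under 0.05, Vamp3, Syt3 and Cplx2 (2.52% and 2.18% of all genes). Without control 4 and cannabis 1, limma gave 0 of 74 at P under 0.01 (0.389% of all genes) and 0 at P under 0.05 (3.14%). In no member did the 4 cannabis values lie wholly on one side of the 4 control values, which happened in 1.98% of all genes.

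For the abundant members the data put limits on the size of a change. Of the 36 members with a mean of at least 100, the 95% interval of the fold change lay within a 2-fold change either way for 32. Those that reached past it were Vamp3, Nsf, Stx5 and Syngr1. The median half-width of the interval was 0.49 on the log2 scale for these 36 genes and 1.25 for members with a mean under 10. The median log2 fold change (cannabis minus control) of the 74 members was 0.01, with 40 positive and 34 negative values. That of all genes was 0.05, with 10153 positive and 7850 negative. The summed level of all members was 24358 ± 461 (SD, n = 4) in controls and 24796 ± 1897 (SD, n = 4) in the cannabis group.

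**Figure D2:**
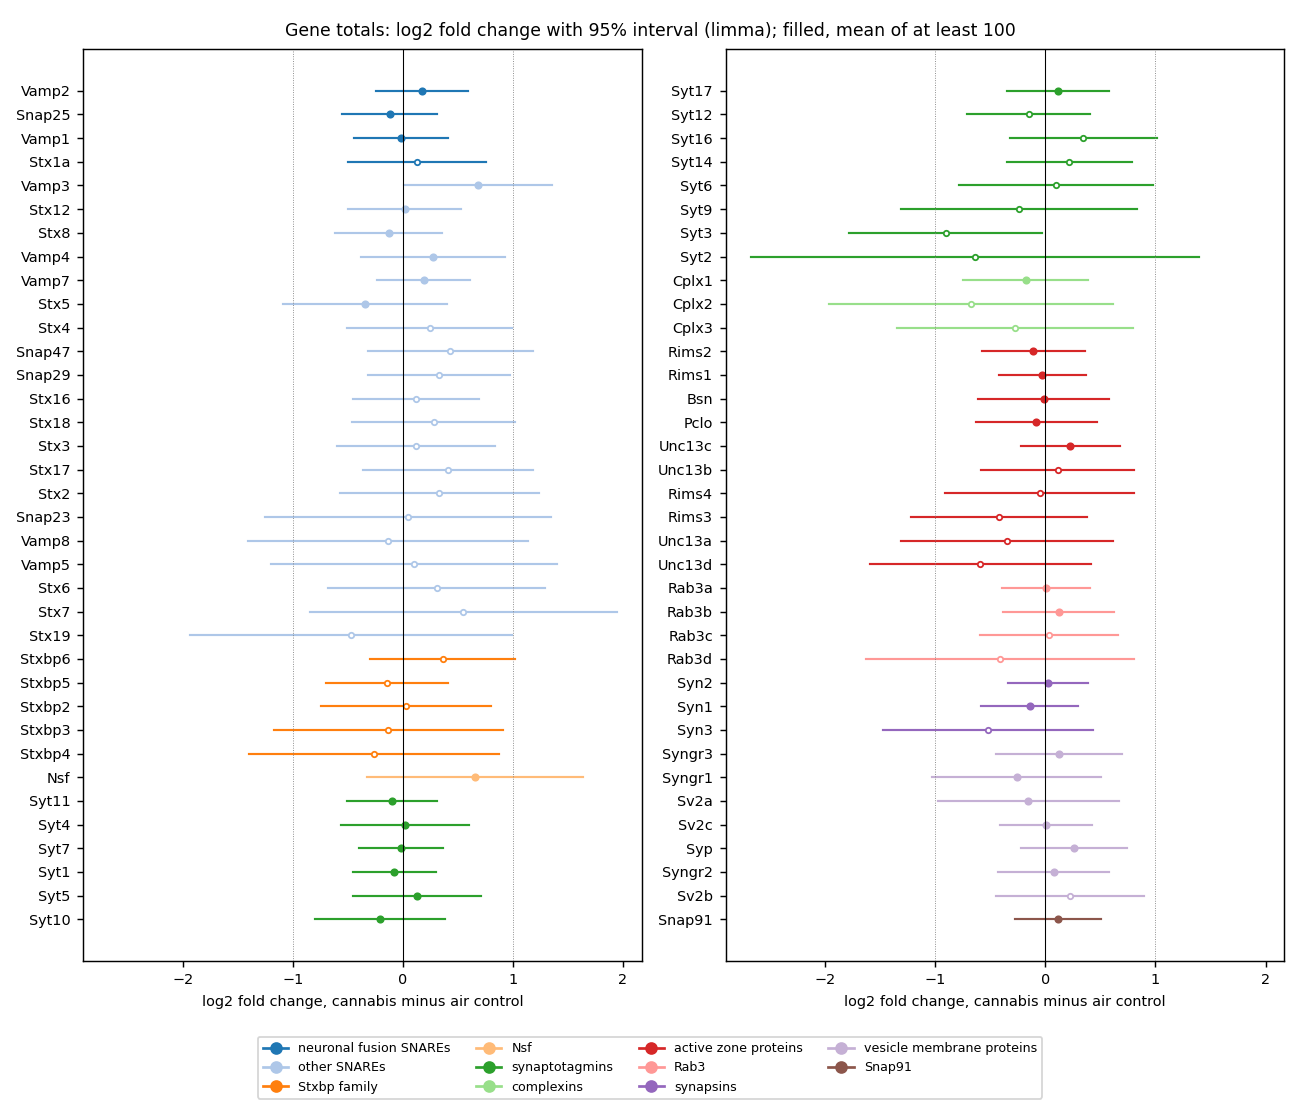
Log2 fold change of the gene total, cannabis minus air control (x), with its 95% interval from limma over 4 and 4 libraries, for 72 of the 74 members, grouped by role (colour). Filled points are members with a mean of at least 100, and dotted lines mark a 2-fold change. Only the intervals of Vamp3 and Syt3 do not cross 0.

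The neuronal fusion SNAREs Vamp2, Vamp1, Stx1a and Snap25 had 0 of 4 members at P under 0.05 and log2 fold changes from -0.12 to 0.18. That of Vamp2 was 0.18 with a 95% interval from -0.24 to 0.59. Snap25, a SNARE of the plasma membrane, had counts of 471, 469, 430 and 685 in controls and of 518, 405, 466 and 475 in the cannabis group, with control 4 the highest. Its log2 fold change was -0.12 (interval -0.55 to 0.31).

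The other SNAREs, which serve endosomes, lysosomes, the Golgi and constitutive secretion, had 1 of 20 members at P under 0.05 and none at 0.01. Their log2 fold changes were positive in 16 and negative in 4, with a median of 0.21. Over all genes 10153 were positive and 7850 negative, with a median of 0.05. The summed level of these 20 members was lowest in control 4 (1120) and cannabis 1 (1308). Vamp3 (cellubrevin), a SNARE of recycling endosomes that is also abundant outside neurons, had the larger level of the 2 members at P under 0.05. Its counts were 174, 225, 287 and 135 in controls and 267, 499.5, 189 and 400.2 in the cannabis group. Cannabis 2 and 5 lay above every control, while cannabis 1 and 3 lay within the control range. The log2 fold change was 0.68 ± 0.31 (SE), with limma P = 0.0481, an adjusted P of 0.999 and an exact permutation P of 0.143 (two-sided, n = 4 per group). Leaving out 1 library gave changes from 0.46, with a limma P of 0.160, without cannabis 2 to 0.93, with a limma P of 0.0092, without cannabis 3. The P was above 0.05 for 5 of the 8 libraries left out in turn. Without both control 4 and cannabis 1 the change was 0.58, with a limma P of 0.104. Snap47 (0.43), Stx17 (0.41) and Stx5 (-0.34) had limma P of 0.238, 0.276 and 0.339.

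Among the synaptotagmins 1 of 14 had P under 0.05 and none passed 0.01. This was Syt3, a calcium sensor of high affinity that is scarce in this tissue. Its counts were 28.5, 10.8, 18.1 and 29.8 in controls and 7.45, 15.3, 11.8 and 8.45 in the cannabis group. Control 2 lay inside the cannabis range and the other 3 controls lay above it. The log2 fold change was -0.90 ± 0.41 (SE), with limma P = 0.0441 and an exact permutation P of 0.0857 (two-sided, n = 4 per group), on 142 reads in all. The limma P was above 0.05 for 6 of the 8 libraries left out in turn, and 0.192 without both control 4 and cannabis 1. Syt1, the main sensor for fast release, was among the steadiest members. It had 520, 432, 438 and 500.5 counts in controls and 487, 428, 428 and 443 in the cannabis group, a log2 fold change of -0.08 (interval -0.46 to 0.30). Controls 1 and 4 lay above every cannabis value, and cannabis 2 and 3 lay just below every control. Syt11 (-0.10), Syt7 (-0.02), Syt5 (0.13) and Syt4 (0.02) all had limma P of at least 0.615. Syt10 had -0.21, and -0.17 without its leading site.

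Complexins had negative log2 fold changes in 3 of 3 genes, against 7850 of all 18003 genes. These were -0.18 for Cplx1, -0.68 for Cplx2 and -0.28 for Cplx3, none with a limma P under 0.05. Cplx2 turned on single libraries. Its counts were 346, 64.6, 25.5 and 115 in controls and 28.6, 79.7, 61.0 and 71.4 in the cannabis group, so that control 1 was 13.6 times the lowest library, control 3. Its log2 fold change was -0.04 without control 1, -0.36 without cannabis 1 and -1.27, with a limma P of 0.0245, without control 3. On recovered reads it was -1.26 with an edgeR P of 0.0443, and -1.27 with a DESeq2 P of 0.0295. Cplx1 had 814, 634, 455 and 375 counts in controls and 453, 590, 581 and 346 in the cannabis group. Here, too, control 1 was the highest of the 8 libraries.

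Nsf, the ATPase that separates SNARE complexes after fusion, had the widest interval of the abundant members. Its counts were 176, 129, 273 and 57.6 in controls and 103, 357, 182 and 331 in the cannabis group. The highest values were in cannabis 2 and 5, and the lowest were in control 4 and cannabis 1. The log2 fold change of 0.65 ± 0.46 (SE) had a limma P of 0.176. It went from 0.24 without control 4 to 1.01 without cannabis 1, with a limma P of 0.0382, and was 0.98 without control 3, with a limma P of 0.0484. Of the syntaxin binding proteins, Stxbp6 had a log2 fold change of 0.36 (interval -0.30 to 1.02), and none of 5 Stxbp genes had P under 0.05.

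Of the 10 active zone genes 0 had P under 0.05, and 8 of the log2 fold changes were negative (7850 of all 18003 genes). Rims1, the scaffold that ties Rab3 to Unc13 proteins, had 293, 309, 281 and 296 counts in controls and 255, 279, 341 and 285 in the cannabis group, a log2 fold change of -0.03 (interval -0.43 to 0.37). The controls lay within the range of the cannabis group. Bsn (bassoon) had -0.02 and Pclo (piccolo) -0.08, the latter with 302.6 counts in cannabis 5 against 143 to 202 in the other 7 libraries. Rims2 had -0.11, and -0.39 ± 0.37 (SE) without its intronic leading site. Low members spread more widely. Unc13d had -0.59 ± 0.47, Rims3 -0.42 ± 0.37 and Unc13a -0.35 ± 0.45 (SE), none with a mean over 20.

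Vesicle components showed no member at P under 0.05 either: 0 of 4 Rab3 genes, 0 of 3 synapsins and 0 of 7 membrane proteins. Rab3a, at a single site, had 1794, 2029, 2267 and 1644 counts in controls and 2039, 1780, 1814 and 2089.9 in the cannabis group. Its log2 fold change of 0.005 changed sign with equal library totals (-0.02), with the interval from -0.40 to 0.40 in the first scaling. Syp (synaptophysin), a membrane marker of synaptic vesicles, had 140, 95.8, 85.3 and 103 counts in controls and 119, 144, 114 and 124 in the cannabis group. Its log2 fold change was 0.26 (interval -0.22 to 0.74), and control 1 lay among the cannabis values. Syn1 had -0.14, Syn2 0.02 and Syn3 -0.52 (interval -1.48 to 0.43). Sv2a, a glycoprotein of the vesicle membrane, had 412, 239, 439 and 145 counts in controls and 139, 450, 255 and 257 in the cannabis group, with control 4 and cannabis 1 the lowest. Syngr3, a vesicle protein, had 0.13 and Syngr1 -0.26. At 1528 bases from the leading Syngr1 site, on the same strand, the files hold a site without a symbol whose mean (602) exceeded that of the site itself (332). Its group means were 596 ± 106.5 and 608 ± 159 (SD, n = 4 each). Snap91, the clathrin adaptor AP180, had 0.12 (interval -0.27 to 0.51).

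**Figure D3:**
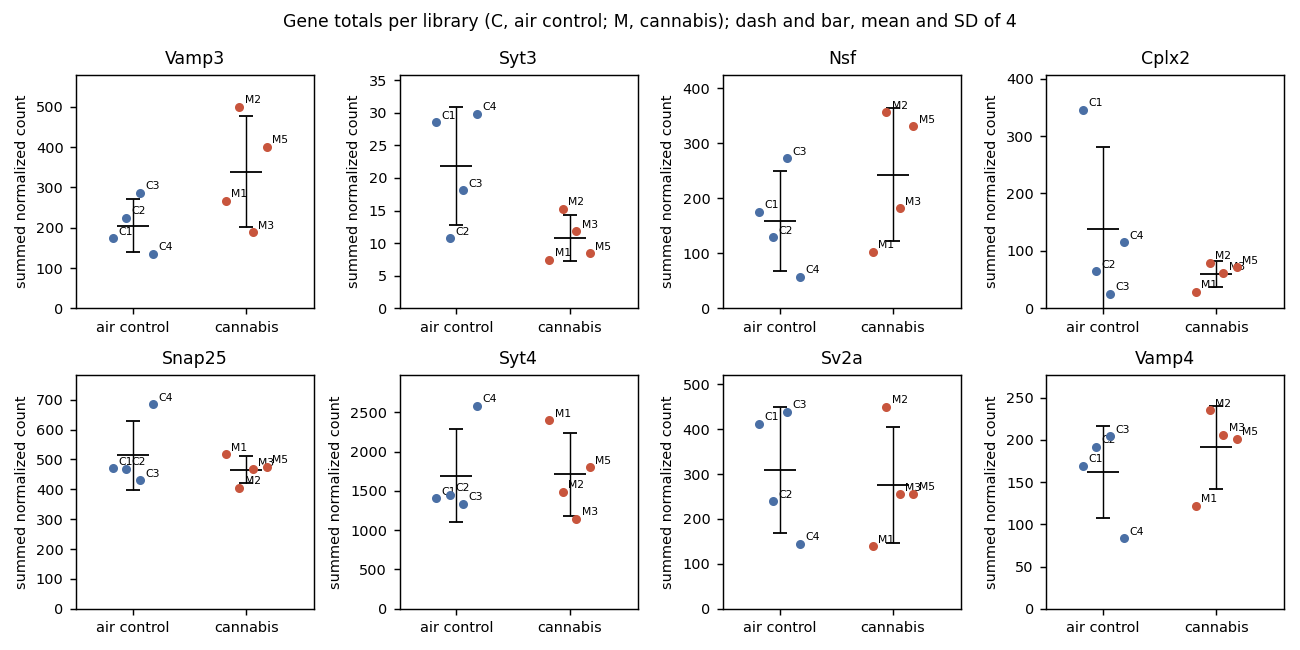
Summed normalized counts (y, from 0) of 8 members in each library, with replicate numbers (C, air control; M, cannabis) and the mean and SD of 4 libraries. Cannabis 2 and 5 are high for Vamp3, control 1 for Cplx2, and C4 and M1 are the 2 highest libraries for Snap25 and Syt4 and the 2 lowest for Sv2a and Vamp4.

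The pattern shared by control 4 and cannabis 1 ran across the exposure groups. Of the 50 members with a mean of at least 50 normalized counts, these libraries were the 2 highest for 5 (10%), among them Syt4, Rab3b, Syn1 and Snap25. They were the 2 lowest for 14 (28%), among them Nsf, Sv2a, Stx4, Vamp4, Snap29 and Bsn. Over all 6104 genes at this level the shares were 13.5% and 20.8%. Syt4, a synaptotagmin of dense-core vesicles, had 1404, 1450, 1337 and 2584 counts in controls and 2400, 1489, 1148 and 1800 in the cannabis group. Vamp4, a SNARE of the trans-Golgi network, had 170, 192, 204 and 83.4 counts in controls and 122, 235, 206 and 201 in the cannabis group. In both genes the spread within a group was wider than the distance between the group means.

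APA sites were numerous. The median member had 4 sites, against 2 for all genes, and 12 members had 1 site, among them Rab3a, Syngr3 and Stx1a. The study kept sites with at least 16 reads, so the number of sites can rise with the level of a gene. Members were not compared with genes of like level. The 5 members with most sites were Syt1 (54), Rims2 (34), Pclo (28), Rims1 (27) and Syn2 (19). Most of these sites were sparse: 345 of the 474 had a mean under 10 normalized counts, and the median site had 36.5 reads over all libraries. In 18 of the 62 members with several sites the leading site held over 90% of the total, as in Vamp2 (99.7%), Vamp1 (99.1%) and Bsn (97.7%). In 17 it held under 50%. Syt1 had no dominant end, with 12.4% on its leading site, nor had Pclo, with 14.6%.

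**Figure D4:**
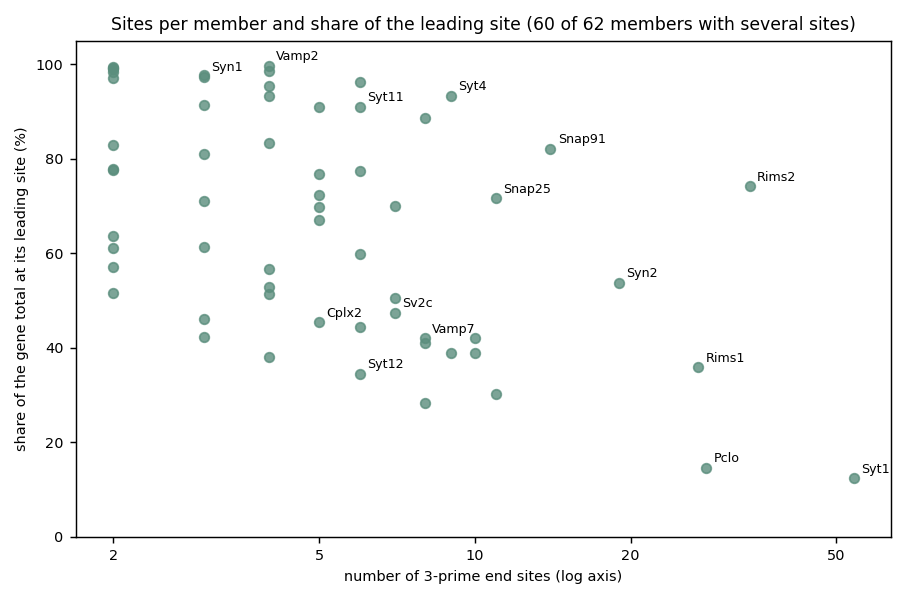
Number of APA sites per member (x, log axis) and the share of the gene total at its leading site (y, %), for 60 of the 62 members with several sites, over all 8 libraries. Syt1 has 54 sites and 12.4% at its leading site, while Vamp2 has 4 and 99.7%.

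Positions were known for 24 sites in 23 genes, in build Rnor_6.0. Of these, 15 were distal (at transcript ends), 2 extended distal (shortly beyond), 4 exonic and 3 intronic. The leading Vamp2 site was distal at chr10:55679378-55679928. The leading Snap25 site was distal at chr3:129788260-129788814, and the leading Vamp3 site was exonic at chr5:168126152-168126174. The leading Nsf site was extended distal at chr10:91878640-91878695. In the 13 sites whose gene strand could be looked up, site and gene shared the strand.

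Sites were then compared one at a time. Of the 474 member sites 1 (lower) had P under 0.01, against 0.381% of all 98356 sites. At an unadjusted P under 0.05 there were 7, of which 6 were lower in the cannabis group and 1 was higher, against 3.03% of all sites (1734 lower and 1247 higher). This balance turned with single libraries. Without control 1 there were 2 lower and 3 higher (929 and 1383 over all sites). Without cannabis 1 there were 7 lower and 7 higher (2333 and 1737 over all sites). None had an adjusted P under 0.1 (0.00102% of all). The site at P under 0.01 was the 10th of the 34 Rims2 sites by level. It had 5, 6, 7 and 4 reads in controls and 3, 0, 1 and 1 in the cannabis group. By normalized counts cannabis 1 overlapped the controls. The log2 fold change was -1.72 ± 0.60 (SE), limma P = 0.0097 and exact permutation P = 0.0571 (two-sided, n = 4 per group). The P was above 0.01 when any of 7 libraries was left out, from 0.0138 without control 1 to 0.0409 without cannabis 2.

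The other lower sites at P under 0.05 were sparse too, with control means from 3.67 (Rab3c) to 18.1 (Syt3) normalized counts. They were the 36th Syt1 site (-1.63), the 10th site of Rab3c (-1.55), the 7th of Stx8 (-1.42), the 4th of Sv2c (-1.35) and the leading Syt3 site (-1.13). The Syt1 site had 17, 2, 2 and 2 reads in controls and 0, 1, 1 and 1 in the cannabis group, and its groups did not overlap. The largest value was that of control 1. The site that was higher was the leading Vamp3 site (0.70, limma P = 0.0476, exact permutation P = 0.143), which carries 99.2% of that gene's total. Of the 474 sites, 6 had groups that did not overlap, against 2.0% of all sites. Without control 4 and cannabis 1, 2 sites had P under 0.01, the Rims2 site and the third site of Syp (2.07), against 0.434% of all sites, and 11 had P under 0.05, against 3.52%. On the recovered reads, edgeR gave 2 member sites at P under 0.01 (0.526% of all sites) and 11 at P under 0.05 (2.91%). DESeq2 gave 0 (0.316%) and 5 (1.86%) at these thresholds. The Rims2 site passed 0.01 in neither, with log2 fold changes of -2.13 in edgeR and -2.26 in DESeq2. The sites that edgeR called at 0.01 included the 36th Syt1 site (-2.78), where control 1 alone held 17 reads.

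Whether exposure moved the use of an end within its gene was asked of site shares. The ratio of a site to the other sites of its gene was tested for 110 member sites in 42 genes, those where both had a mean of at least 10 normalized counts. None had P under 0.01 (0.244% of all 11888 shares tested), 0 had P under 0.05 (2.29% of all), and 0 an adjusted P under 0.1 (0% of all). Without control 4 and cannabis 1, 0 had P under 0.01 (0.269% of all) and 3 had P under 0.05, all higher (2.82% of all). At P under 0.05 there were also 3 without control 3 (422 of all 11888 shares) and 3 without cannabis 1 (450 of all 11888). The smallest P was that of the second site of Syt12, whose share of the gene was 13.1%, 10%, 36.5% and 38.7% in controls and 39.6%, 31.5%, 44.8% and 52.0% in the cannabis group. Controls 1 and 2 were low, and controls 3 and 4 lay among the cannabis values. The change in log2 ratio was 1.31 ± 0.61 (SE), with limma P = 0.0530 and an exact permutation P of 0.143.

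A shift in the use of ends in Syn2 did not follow the exposure. Syn2 has a leading site classed intronic (chr4:147189695-147190107) and a distal site 4980 bases further along the + strand (chr4:147195088-147195303). The leading site held 54.5%, 59.3%, 63.0% and 33.7% of the gene in controls 1 to 4 and 37.2%, 60.6%, 61.1% and 61.4% in cannabis 1, 2, 3 and 5. Control 4 and cannabis 1 thus stood below the other 6 libraries. The distal site had 683 and 713 normalized counts in these libraries, and from 320 to 375 in the other 6. The total of the gene hardly varied (from 1154 to 1316 counts, a coefficient of variation of 4.33%), the lowest of all members. Rims2 behaved similarly at its second site, with 179 counts in control 4 and 212 in cannabis 1, against 91.3 in control 3 and from 9.84 to 35.2 in the other 5. What sets these libraries apart was not tested.

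**Figure D5:**
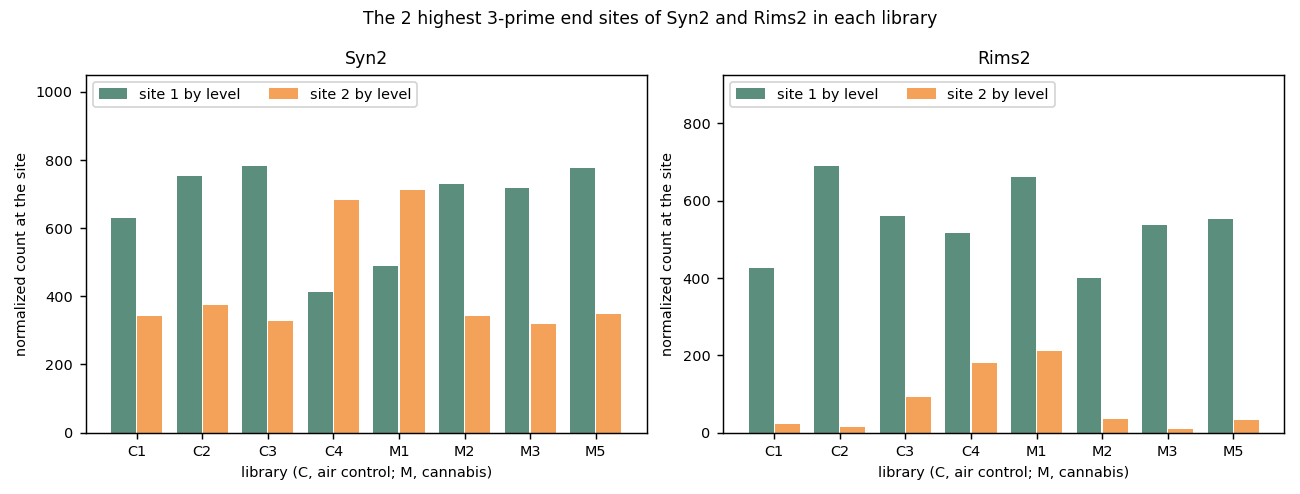
Normalized counts (y, from 0) at the highest (green) and second highest (orange) APA site of Syn2 and of Rims2 in each library (C, air control; M, cannabis). In C4 and M1 the second Syn2 site exceeds the first, and the second Rims2 site reaches 179 and 212 counts.

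Of 38 other genes of the pathway, such as the SNAP adaptors of Nsf (Napa, Napb, Napg), synucleins, liprins, Cadps and endocytic proteins, 0 had P under 0.01 and 0 had P under 0.05 in gene totals, with a median log2 fold change of 0.03. Napb, the neuronal form, had 0.05, Rph3a (rabphilin, a Rab3 effector) 0.13, and Dnajc5 (a vesicle chaperone) 0.13. Their summed level was 9502 ± 494 in controls and 9538 ± 791 in the cannabis group (SD, n = 4 each).

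Markers of other cells in the dissection were read in the same fit. None of 6 neuronal, 6 astrocyte, 6 oligodendrocyte, 6 microglial, 5 endothelial, 3 pituitary and 4 choroid plexus genes had P under 0.05. Oligodendrocyte sums were from 40021 to 54214 in controls and from 33168 to 49693 in the cannabis group, and astrocyte sums from 2836 to 4204 and from 3208 to 5162. Microglial sums were from 612 to 830 and from 619 to 796, pituitary sums from 122 to 821 and from 196 to 702, and choroid plexus sums from 15.9 to 31.1 and from 13.7 to 45.2. The endothelial sum was from 92.2 to 93.6 in controls and from 109.6 to 122.9 in the cannabis group, without overlap. Most of it was Flt1 (means of 71.0 and 95.7), whose own groups overlapped, with 77.9 in control 3 and 77.1 in cannabis 2. Of the 5 endothelial log2 fold changes 4 were positive, and 1, that of Pecam1 (-0.67), was negative. Of 9 genes of hypothalamic neurons, 8 had positive log2 fold changes and 3 had P under 0.05 (2.41% of all genes). These were Avp (1.44 ± 0.34), Oxt (1.05 ± 0.29) and Nkx2-1 (0.86 ± 0.39, all SE). Avp and Oxt also passed P under 0.01 (0.278% of all genes), and none had an adjusted P under 0.1. The sum of the list was from 3244 to 5591 in controls and from 7355 to 9421 in the cannabis group. Its means were 4162 and 8151, of which Avp alone had 1952 and 4934. The part of these lists in the values of Vamp3 and Syt3 was not tested.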

How the data were processed

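The authors removed low-quality reads (FASTX Toolkit), cut the Ts at read starts, mapped the rest with TMAP 3.4.1 to Rnor_6.0 (NCBI Annotation Release 106), clustered read ends into sites and assigned genes with Cuffcompare 2.2.1. The deposited signal is a normalized count per site and library, the reads divided by a DESeq2 size factor of each library. All values were whole multiples of 1 read's value (within 0.001 reads), so reads were recovered (1159811 to 3706778 per library).

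Groups came from the labels, which name 8 separate libraries. The paper gives 8 rats per group for this experiment but 8 libraries in all. How the 4 libraries of each group relate to those rats is not stated. Sites, gene totals and site shares were fitted over all features with limma 3.58.1 (R 4.3.3, lmFit and eBayes with trend), on log2(value + 1), or for shares log2((site + 0.5)/(rest + 0.5)). Fold changes on these scales understate those of low counts. P-values were adjusted by Benjamini-Hochberg, and thresholds were 0.01 (P) and 0.1 (adjusted P). Exact permutation tests of 4 against 4 cannot go below 0.0286. Intervals are at 95%. edgeR 4.0.16 and DESeq2 1.42.0 were run on the recovered reads as alternatives. The fits were tested on simulated reads.

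Named were 17 core genes, the 20 members of highest level, the 10 gene totals, 15 sites and 10 shares of smallest P, and the 5 members with most sites, except 2 members that are not reported here by name. Members, lists and rules were chosen with earlier results of these data known. Vamp1, Vamp4, Syt2, Syt14, Syt17, Stx4, Stx5, Stx7, Stx19, Stxbp3, Sv2b, Snap29, Unc13b, Unc13c, Cplx3 and the site beside Syngr1 were named after their values were seen. The other alternatives were other pseudocounts, minimum levels, no trend, equal totals, a P threshold of 0.05, the replicate number as a block, and each library left out. Leaving out the pair of sparsest libraries, and the intronic leading sites of Rims2 and Syt10, was chosen after seeing the data. Positions came from the study's site table, of which part was used, and promoters from RefSeq. Tables and figures were made in Python 3.11.15 (scipy 1.17.1, pandas 2.3.3, matplotlib 3.10.9, numpy 2.4.6). The labels do not pair the libraries by replicate number, and the main fits used no pairing.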

Additional observations from a re-analysis of the deposited data

Results flagged for a closer look

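In 142 groups of 4 libraries, those of gene totals with a mean of at least 50 normalized counts and of the named sites, 11 had a library whose gap to the nearest of the others exceeded the 95% critical value of Dixon's test for 4 samples. Chance flags about 1 in 20 groups, and the genes share libraries. In gene totals these were Syt4 in control 4 (2584, the other controls from 1337 to 1450.0) and Snap25 in control 4 (685.2, the others from 429.7 to 470.8). Syngr3 (762.6), Syt7 (625.8) and Sv2b (99.64) were high in cannabis 2, Syt17 (177.9) and Sv2b (104.1) in control 3, and Pclo (302.6) in cannabis 5.

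At single sites, the 10th Stxbp6 site had 9.985 normalized counts in cannabis 5 and at most 1.968 in the other cannabis libraries. The 25th Rims1 site had 3.972 in control 4 and at most 0.6714 in the other controls. The leading Stx3 site had 6.209 in cannabis 1, below 29.89 to 33.46 in the other cannabis libraries. What sets these values apart was not tested.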

How the results depend on the processing

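Of 923 values recomputed for 57 single results, 850 kept their direction and their side of the 0.01 threshold. The number of member sites with P under 0.01, 1 in the reported fit, was 2 with edgeR and without both control 4 and cannabis 1 (chosen after seeing the data), 0 with DESeq2, with pseudocounts of 0.5 and 5 and with a mean of at least 10 normalized counts, and 7 at P under 0.05. Leaving out each library gave 0 to 2, with 2 without control 3 and 0 without controls 1 and 4 and cannabis 2, 3 and 5. Without control 3, 617 of all 98356 sites were called. Gene totals went from 0 to 2 at P under 0.05. They went from 0 to 1 with each library left out (Vamp3, without cannabis 3, where 61 of all 18003 genes were called). Site shares also gave 0 to 1 (Stx18, without cannabis 1, where 56 of all 11888 shares were called). No count at an adjusted P under 0.1 left 0 under the alternatives run.

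With the replicate number as a block, 0 sites, 0 gene totals and 0 shares had P under 0.01. The labels do not say whether libraries of the same number share an origin, and 3 pairs are too few to decide it. Same-numbered libraries correlated from -0.27 to 0.13 (3 pairs) and others from -0.52 to 0.62 (13 pairs). The block turned the sign of Rab3a (-0.11), Snap25 (0.015), Snap91 (-0.00217), Syngr3 (-0.0602) and Syt7 (0.031), none past 0.01. It gave log2 fold changes of 0.035 for Nsf and 0.39 for Vamp3. At P under 0.05 it gave 4 lower and 4 higher member sites (1142 and 745 over all sites).

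Further sign changes were in log2 fold changes that had not passed a threshold, and the cause was not tested. Without control 4 and cannabis 1 they were Bsn 0.12, Pclo 0.0352, Rab3a -0.097, Rims1 0.032, Syn2 -0.00663, Syngr3 -0.0701, Syt5 -0.0469, Syt7 0.021 and the ratio of the leading Stx17 site -0.17. With equal totals they were Rab3a -0.016 and Syt4 -0.00274. With edgeR they were Rab3a -0.0474, Syn2 -0.028 and Syt4 -0.0386, and with DESeq2 Rab3a -0.053, Syn2 -0.0349 and Syt4 -0.052. With each library left out, ranges that crossed 0 were Bsn -0.18 to 0.25, Cplx1 -0.36 to 0.013, Pclo -0.34 to 0.018, Rab3a -0.069 to 0.085, Rab3b -0.026 to 0.29, Rims1 -0.11 to 0.029, Snap25 -0.20 to 0.026, Stx1a -0.046 to 0.28, Sv2a -0.47 to 0.13, Syn2 -0.0080 to 0.047, Syngr3 -0.11 to 0.32, Syt10 -0.46 to 0.031, Syt4 -0.16 to 0.24, Syt5 -0.084 to 0.31 and Syt7 -0.094 to 0.016.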
